A study of Mus musculus with 12 samples.

Results

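The genes described here build or accompany motile cilia, and several are used as markers of the ependymal cells that line the brain ventricles. They were taken by name: every gene measured whose symbol is Dnah, Dnai, Dnaaf, Rsph or Cfap followed by a digit, and 19 further symbols (Ccdc153, Tmem212, Enkur, Dynlrb2, Fam216b, Fam183b, Ccdc39, Ccdc40, Tppp3, Mlf1, Lrrc23, Ak7, Pifo, Nme5, Zmynd10, Foxj1, Cabcoco1, Ccno and Mcidas). That gave 64 genes of the 18194 measured: 10 Dnah, 0 Dnai, 5 Dnaaf, 6 Rsph and 25 Cfap genes, and 18 of the 19 symbols. Mcidas had no probe set under its name. Of the 96 probe sets of these genes, the one with the highest mean over all arrays stood for its gene, and 22 genes had several. The genes were chosen by name, with earlier results of these arrays known, and the probe sets were selected on that mean, which is therefore given only as a description.

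The arrays measured RNA of granule cell progenitors, the dividing precursors of cerebellar granule neurons, from mice at postnatal day 8. The 4 groups, with 3 arrays each and 12 arrays in all, were SmoM2 hemisphere, wild type hemisphere, SmoM2 vermis and wild type vermis. SmoM2 mice carried Atoh1-CreER and the R26LSL-SmoM2-YFP allele and received 200 µg tamoxifen per g at postnatal day 2, so an activated Smoothened was switched on in cells of the Atoh1 lineage. The labels do not say whether wild type mice were also given tamoxifen, so that agent and the allele cannot be told apart. All mice were of a mixed background with C57BL/6 and Swiss Webster. Each array came from a Percoll gradient fraction of the lateral cerebellum or the midline, pooled from 5 mice, and no step that removes other cell types by a surface marker is described.

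A motile cilium is a beating extension of the cell. Its core, the axoneme, carries dynein motors in an outer and an inner row, radial spokes that pass signals from the centre to those motors, and proteins inside and between the microtubules. Dynein arms are put together in the cytoplasm by assembly factors before they enter the cilium. In the brain, ependymal and choroid plexus cells bear such cilia, and the transcription factor Foxj1 switches on much of the program. Granule cell progenitors carry a single primary cilium, which lacks this motility machinery and through which hedgehog signals pass.

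All values are log2 expression per probe set, so a difference of 1 is a factor of 2. Array medians lay between 4.81 and 4.87 and lower quartiles between 3.24 and 3.42. Judged by its mean, 11 of the 64 genes were dimmer than each array's lower quartile (Cfap157, Cfap221, Cfap45, Cfap47, Cfap61, Cfap70, Cfap97d1, Dnaaf6, Dnah5, Dnah8 and Rsph6a), 28 lay between that and the median, and 25 lay above the median. The test was limma in 1 model of the 4 groups, and a gene is said to pass where its p, adjusted over all 18194 genes after Benjamini and Hochberg, is under 0.05. The replicates are separate pools of mice, and p-values measure the spread between pools. In bulk samples, fewer cells of a type and less RNA per cell cannot be told apart.

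By group means, 44 of the 64 genes were lower in the hemisphere than in the vermis in both genotypes. In wild type progenitors 7 of 64 were lower in the hemisphere (Ccdc153, Enkur, Tmem212, Fam216b, Rsph4a, Fam183b and Cabcoco1) and 0 were higher, which is 10.9% lower against 0.148% of all genes, and 0.0385% of all genes were higher (0.187% in either direction). They made up 7 of the 27 genes called lower anywhere on the array, 25.9% of them. In SmoM2 progenitors 0 of 64 passed by limma, where 0.0605% of all genes did (0.044% lower and 0.0165% higher), and the smallest adjusted p was 0.203. At an unadjusted p under 0.05, 23 of the 64 were lower and 1 was higher in SmoM2 hemisphere (2.0% and 1.64% of all genes), and 30 were lower and 1 was higher in wild type hemisphere (4.0% and 2.31%). The median difference, hemisphere minus vermis, was -0.21 over the 64 genes in SmoM2, against 0.01 over all genes, and -0.24 in wild type, against -0.0 over all genes.

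Of the 7 calls in wild type, 6 fell among the 18 genes listed by symbol. These symbols were chosen with earlier results of the same arrays known, so their count is a description. Of the 46 genes taken by their symbol's first letters, 1 (Rsph4a) was lower and 0 were higher, which is 2.17%. At an unadjusted p under 0.05, 17 of these 46 were lower and 1 was higher. Their median difference was -0.10 in SmoM2 and -0.13 in wild type.

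**Figure D1:**
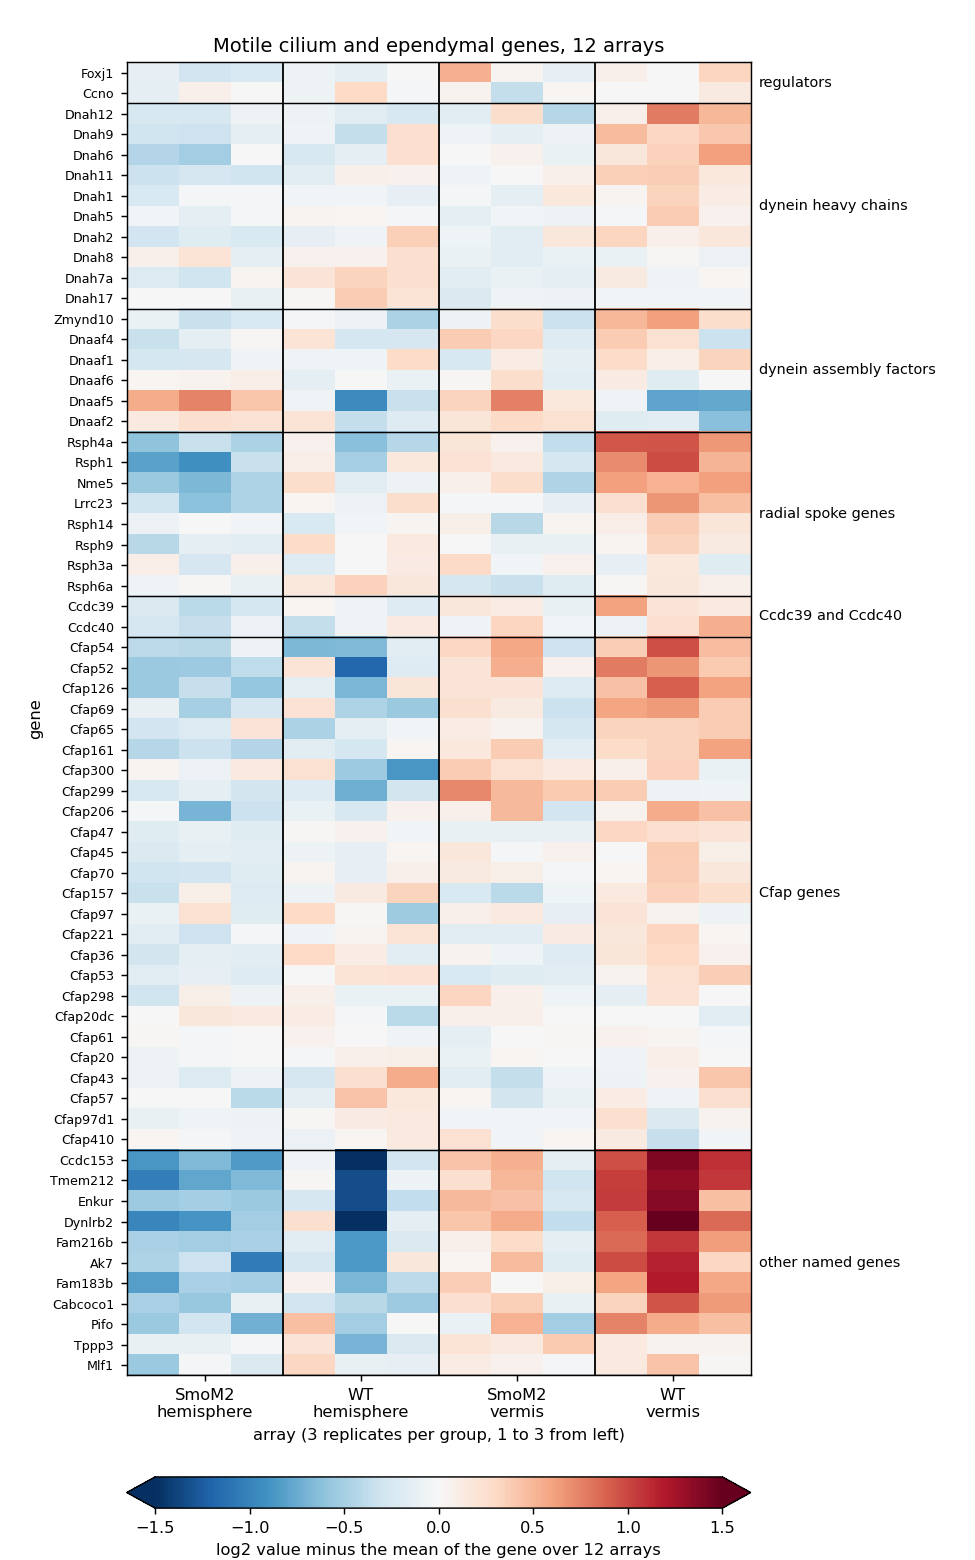
The 64 genes (rows, by role) on the 12 arrays (columns), coloured by the log2 value minus the mean of that gene over the arrays, with values past 1.5 either way drawn in the end colours. The wild type vermis columns are red for most radial spoke genes and listed genes, and wild type hemisphere replicate 2 is the bluest of its group for Ccdc153, Tmem212, Enkur and Dynlrb2.

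Tmem212, a transmembrane protein gene used as an ependymal marker, read 4.79, 5.04 and 5.16 in SmoM2 hemisphere, 5.84, 4.50 and 5.75 in wild type hemisphere, 6.06, 6.32 and 5.53 in SmoM2 vermis and 6.86, 7.16 and 6.89 in wild type vermis. Every hemisphere array lay below every vermis array of its genotype. The difference between hemisphere and vermis was -0.98 ± 0.29 (SE) in SmoM2 (adjusted p = 0.715, limma) and -1.61 ± 0.29 in wild type (adjusted p = 0.0403). Ccdc153, a coiled-coil gene also used as an ependymal marker, had the largest difference of the set: 4.77, 4.98 and 4.79 in SmoM2 hemisphere, 5.59, 4.07 and 5.35 in wild type hemisphere, 6.06, 6.17 and 5.49 in SmoM2 vermis and 6.61, 7.04 and 6.73 in wild type vermis. It differed by -1.06 ± 0.30 in SmoM2 (adjusted p = 0.689) and by -1.79 ± 0.30 in wild type (adjusted p = 0.0353), which is 3.46-fold. Again no hemisphere array reached a vermis array of its genotype.

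Enkur, whose product binds microtubules inside the axoneme, read 4.10, 4.13 and 4.08 in SmoM2 hemisphere, 4.39, 3.31 and 4.27 in wild type hemisphere, 5.13, 5.08 and 4.40 in SmoM2 vermis and 5.69, 6.00 and 5.09 in wild type vermis. The SmoM2 hemisphere arrays lay close together, below all vermis arrays. The difference was -0.77 ± 0.28 in SmoM2 (adjusted p = 1.0) and -1.60 ± 0.28 in wild type (adjusted p = 0.039). Fam216b, a gene with little known function, read 4.84, 4.80 and 4.84 in SmoM2 hemisphere, 5.16, 4.47 and 5.11 in wild type hemisphere, 5.40, 5.60 and 5.18 in SmoM2 vermis and 6.18, 6.39 and 5.95 in wild type vermis. Its 4 groups stood in the same order as those of Tmem212. It differed by -0.57 ± 0.17 in SmoM2 (adjusted p = 0.767) and by -1.26 ± 0.17 in wild type (adjusted p = 0.0117).

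Cabcoco1, named for a calcium-binding and coiled-coil domain, read 2.95, 2.87 and 3.33 in SmoM2 hemisphere, 3.15, 3.02 and 2.89 in wild type hemisphere, 3.68, 3.80 and 3.33 in SmoM2 vermis and 3.77, 4.38 and 4.08 in wild type vermis. Its hemisphere values lay near or below the lower quartile of the arrays, and no hemisphere array passed a vermis array of its genotype. The difference was -0.55 ± 0.17 in SmoM2 (adjusted p = 0.763) and -1.06 ± 0.17 in wild type (adjusted p = 0.0293). Fam183b, chosen for naming after its values were seen, read 3.69, 4.03 and 4.01 in SmoM2 hemisphere, 4.58, 3.83 and 4.13 in wild type hemisphere, 4.89, 4.52 and 4.61 in SmoM2 vermis and 5.11, 5.71 and 5.10 in wild type vermis. No hemisphere array reached a vermis array of its genotype. The differences were -0.76 ± 0.20 (adjusted p = 0.496) and -1.13 ± 0.20 (adjusted p = 0.039).

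These calls depend on single arrays. The number of genes passing in wild type was 7 with all arrays, 0 without wild type vermis replicate 2, and 2 without wild type hemisphere replicate 2, wild type vermis replicate 1, SmoM2 hemisphere replicate 1 or SmoM2 vermis replicate 1. It was 3 without wild type vermis replicate 3, SmoM2 hemisphere replicates 2 or 3 or SmoM2 vermis replicate 2, and 4 when wild type hemisphere replicate 3 was left out. Leaving out wild type hemisphere replicate 1 gave 11. Of single arrays, Fam216b lost its call only without wild type vermis replicate 2 (adjusted p = 0.063), and Rsph4a lost its call without wild type vermis replicates 1 (0.0661) or 2 (0.128) and wild type hemisphere replicates 2 (0.101) or 3 (0.0554). Left out singly, 9 arrays ended the call of Tmem212 (adjusted p of 0.0523 to 0.221), 8 that of Ccdc153 (0.0523 to 0.209), 9 that of Enkur (0.0523 to 0.209), 11 that of Fam183b (0.0523 to 0.212) and 6 that of Cabcoco1 (0.0501 to 0.149). With only the wild type groups in the model, all 7 lost their call, at adjusted p of 0.171 to 0.262, and Cabcoco1 also did with array quality weights (0.0684). Hemisphere and vermis arrays that carry the same replicate number deviated together, more so in wild type. The labels do not say whether such arrays share mice, so blocks by number rest on these values alone. With genotype and number as a block, 2 genes passed in wild type (Fam216b and Rsph4a) and 0 in SmoM2, and with the number alone as a block 5 and 0. With genotype and number taken as a pool and fitted as a random block, 15 passed in wild type and 1 in SmoM2. The share of all genes moved as well. In wild type these 3 blocks gave 0.269%, 0.214% and 1.09% of all genes, in the order given, and in SmoM2 0.0824%, 0.066% and 0.214%. With arrays left out singly the wild type share of all genes ran from 0.044% to 0.319%. It was 0.0165% with only the wild type groups in the model.

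A count that needs no test showed the same direction in both genotypes, whose region differences share no array. The 3 hemisphere arrays all lay below the 3 vermis arrays for 26 of 64 genes in SmoM2 (40.6%, against 5.09% of all genes) and for 26 in wild type (40.6%, against 4.69%). For 17 genes this held in both genotypes, 26.6% against 0.753% of all genes: Ak7, Cabcoco1, Ccdc153, Ccdc39, Cfap126, Cfap161, Cfap299, Cfap47, Cfap52, Dnah11, Dynlrb2, Enkur, Fam183b, Fam216b, Nme5, Rsph1 and Tmem212. Of these 17, 10 came from the listed symbols and 7 from the 46 genes taken by first letters (15.2% of the 46). The dimmer second probe set of Cfap52 differed less, by -0.00 in SmoM2 and -0.28 in wild type. Both dimmer probe sets of Ccdc39 differed by -0.08 to 0.04. The 26 of SmoM2 held 14 of the 18 listed symbols (77.8%) and 12 of the 46 (26.1%). The 26 of wild type held 11 of the 18 (61.1%) and 15 of the 46 (32.6%). The listed symbols were chosen with earlier results known, so their counts are a description. The number without overlap in both genotypes was again 17, with the same genes, when wild type hemisphere replicate 2 was left out. It was 21 when SmoM2 vermis replicate 3 was left out. Leaving out an array can only keep or add genes in such a count. The share of all genes rose as well, to 0.962% and 1.17%. The 44 genes lower by means in both are 68.8% of the set, against 25.9% of all genes. Within the pairs of the same number, 32 genes in SmoM2 and 35 in wild type were lower in the hemisphere in all 3 pairs (14.3% and 15.7% of all genes), and 25 were lower in all pairs of both genotypes (39.1%, against 3.52% of all genes).

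**Figure D2:**
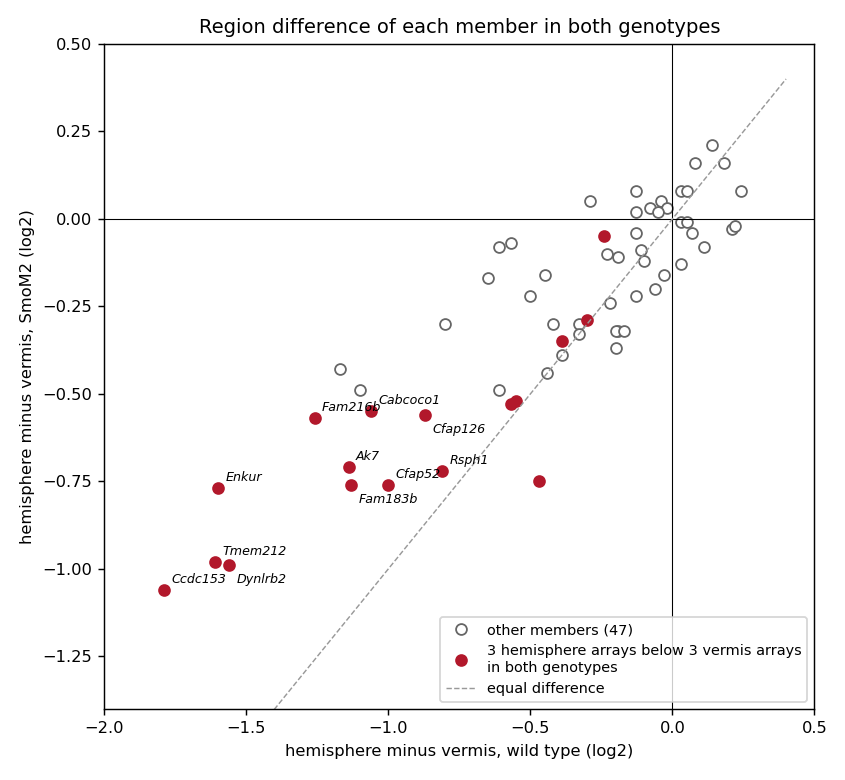
Hemisphere minus vermis (log2) in SmoM2 (vertical) against wild type (horizontal) for each of the 64 genes, with filled points for the 17 genes whose 3 hemisphere arrays lie below the 3 vermis arrays in both genotypes. Ccdc153, at -1.06 in SmoM2 and -1.79 in wild type, lies farthest from 0 on both axes.

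Dynlrb2, a light chain of dynein, had one of the largest differences without a call. It read 4.77, 4.86 and 5.23 in SmoM2 hemisphere, 5.99, 4.21 and 5.60 in wild type hemisphere, 6.16, 6.30 and 5.38 in SmoM2 vermis and 6.65, 7.24 and 6.60 in wild type vermis. The spread in wild type hemisphere, 0.94 (SD), was the widest of its groups. Its differences were -0.99 ± 0.36 in SmoM2 (adjusted p = 1.0) and -1.56 ± 0.36 in wild type (adjusted p = 0.153). Wild type hemisphere replicate 2 was the lowest of its 3 for 28 of the 64 genes. Other arrays were the lowest of their 3 more often, SmoM2 vermis replicate 3 for 36 and SmoM2 hemisphere replicate 1 for 29.

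The mean over the 64 genes was 4.45, 4.49 and 4.52 in SmoM2 hemisphere, 4.70, 4.46 and 4.67 in wild type hemisphere, 4.81, 4.83 and 4.63 in SmoM2 vermis and 5.00, 5.10 and 4.96 in wild type vermis. The same arrays averaged 5.97 to 6.04 over all genes. Wild type vermis had the highest group mean for 43 genes and SmoM2 hemisphere the lowest for 40. The order wild type vermis, SmoM2 vermis, wild type hemisphere and SmoM2 hemisphere, from high to low, held for 23 genes. The SmoM2 and wild type hemisphere arrays overlapped in this mean.

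Promoters of 6 genes are shown. Among the genes with a promoter sequence, Fam216b, Dnaaf5, Cfap47 and Lrrc23 had the smallest adjusted p in a comparison of SmoM2 with wild type. Enkur and Ccdc153, which passed between regions in wild type, were added after their values were seen. Each promoter runs from 250 bases before to 50 bases after the transcription start on the gene's strand, from RefSeq on GRCm38.p6. Capitals mark the letters GTTGCC, an arm of the X-box that RFX factors bind, and TGTTTA, a forkhead core that factors of the Foxj1 family bind, on either strand.
Fam216b: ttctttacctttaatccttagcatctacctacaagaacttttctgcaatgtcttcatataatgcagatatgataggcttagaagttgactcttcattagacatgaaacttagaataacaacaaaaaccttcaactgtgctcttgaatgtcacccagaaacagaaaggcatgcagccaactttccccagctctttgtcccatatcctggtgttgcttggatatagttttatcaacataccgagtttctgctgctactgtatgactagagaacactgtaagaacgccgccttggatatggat
Dnaaf5: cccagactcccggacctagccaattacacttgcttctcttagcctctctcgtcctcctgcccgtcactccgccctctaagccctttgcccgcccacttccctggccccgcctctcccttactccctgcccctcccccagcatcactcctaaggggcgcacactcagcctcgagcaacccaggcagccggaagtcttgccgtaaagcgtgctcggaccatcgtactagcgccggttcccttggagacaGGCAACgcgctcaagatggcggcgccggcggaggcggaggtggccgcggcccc
Cfap47: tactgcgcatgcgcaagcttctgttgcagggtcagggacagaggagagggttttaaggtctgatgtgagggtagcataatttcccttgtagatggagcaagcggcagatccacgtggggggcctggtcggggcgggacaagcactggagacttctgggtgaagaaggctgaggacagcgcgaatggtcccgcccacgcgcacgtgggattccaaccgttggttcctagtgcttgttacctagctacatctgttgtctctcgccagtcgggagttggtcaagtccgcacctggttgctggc
Lrrc23: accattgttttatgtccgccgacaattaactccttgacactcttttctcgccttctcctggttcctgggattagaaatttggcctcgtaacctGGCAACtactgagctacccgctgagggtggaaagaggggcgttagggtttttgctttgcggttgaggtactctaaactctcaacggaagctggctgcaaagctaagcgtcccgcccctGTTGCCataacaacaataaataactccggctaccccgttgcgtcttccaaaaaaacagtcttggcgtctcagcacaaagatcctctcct
Enkur: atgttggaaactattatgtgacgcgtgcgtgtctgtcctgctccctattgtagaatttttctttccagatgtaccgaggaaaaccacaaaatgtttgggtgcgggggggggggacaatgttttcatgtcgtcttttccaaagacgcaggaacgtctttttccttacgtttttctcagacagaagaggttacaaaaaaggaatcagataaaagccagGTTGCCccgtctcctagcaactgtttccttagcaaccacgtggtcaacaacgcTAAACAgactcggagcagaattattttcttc
Ccdc153: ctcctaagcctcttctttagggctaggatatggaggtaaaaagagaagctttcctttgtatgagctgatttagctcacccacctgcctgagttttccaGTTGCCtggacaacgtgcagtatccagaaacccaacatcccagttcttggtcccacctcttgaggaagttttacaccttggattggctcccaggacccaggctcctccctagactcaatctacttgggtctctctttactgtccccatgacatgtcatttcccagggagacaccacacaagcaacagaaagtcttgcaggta
They lie at chr14:78088958-78089257 (minus strand), chr5:139149985-139150284 (plus), chrX:79517302-79517601 (minus), chr6:124779678-124779977 (minus), chr2:21205316-21205615 (minus) and chr9:44240427-44240726 (plus), in the order printed.

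Of the 64 genes, 52 had a promoter in the table. GTTGCC was found in 20 of the 52 (38.5%), against 14.1% of all 27025 genes with a promoter. The whole X-box was found in 4 (7.69%, against 0.529%): Cfap20dc, Cfap298, Dnaaf6 and Pifo. The arm GTTGCC can lie inside the whole, and all motifs were searched on both strands. TGTTTA was found in 15 (28.8%, against 15.1%), among them Enkur, Tmem212 and Dnah12. TGGGTGGTC, the site of Gli factors at the end of the hedgehog pathway, was found in 0 of the 52 and in 0.289% of all genes. Counted in bases from the start, Lrrc23 held GTTGCC at -157 and -39, Ccdc153 at -152, Enkur at -34 and Dnaaf5 at -3, and Enkur held TGTTTA at 20. Fam216b and Cfap47 held neither in this window. A match is a run of letters and does not show binding.

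Against wild type, SmoM2 progenitors had lower values for more of these genes in the vermis than in the hemisphere by count. In the hemisphere 4 of 64 were lower (Lrrc23, Dnah7a, Nme5 and Rsph9), 6.25% against 7.18% of all genes, and 1 (Dnaaf5) was higher, 1.56% against 7.62%. In the vermis 14 were lower, 21.9% against 9.46% of all genes, and 2 (Dnaaf5 and Dnaaf2) were higher, 3.12% against 7.56%. The hemisphere share was near that of all genes. In the vermis, 6 of the 18 listed symbols (33.3%) and 8 of the 46 genes taken by first letters (17.4%) were lower. In the hemisphere these counts were 2 (11.1%) and 2 (4.35%). The choice of the listed symbols with earlier results known makes their counts a description. The median difference over the 64 genes was -0.15 in the hemisphere, against -0.05 over all genes, and -0.25 in the vermis, against -0.06. At an unadjusted p under 0.05, 30.9% of all genes differed in the hemisphere (17.0% lower and 14.0% higher) and 33.0% in the vermis (19.5% lower and 13.5% higher), against 12 of the 64 lower and 2 higher in the hemisphere and 27 lower and 3 higher in the vermis. The 3 SmoM2 arrays lay below the 3 wild type arrays for 15 genes in the hemisphere (23.4%, against 18.3% of all genes) and for 26 in the vermis (40.6%, against 22.5%). They lay above for 2 and 4 genes, where 13.4% and 17.3% of all genes did, so that 31.7% and 39.8% of all genes had no overlap in either direction.

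The difference between both SmoM2 effects was tested on its own. By limma 0 of 64 genes passed, as did 0.0% of all genes. At an unadjusted p under 0.05 there were 4, each with a higher value of SmoM2 minus wild type in the hemisphere than in the vermis: Rsph4a (0.74 ± 0.25), Fam216b (0.70 ± 0.24), Cfap65 (0.50 ± 0.21) and Enkur (0.84 ± 0.39). They are 6.25% of the 64, against 3.1% of all genes (2.01% positive and 1.09% negative), and no difference in the SmoM2 effect between regions passed the correction.

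**Figure D3:**
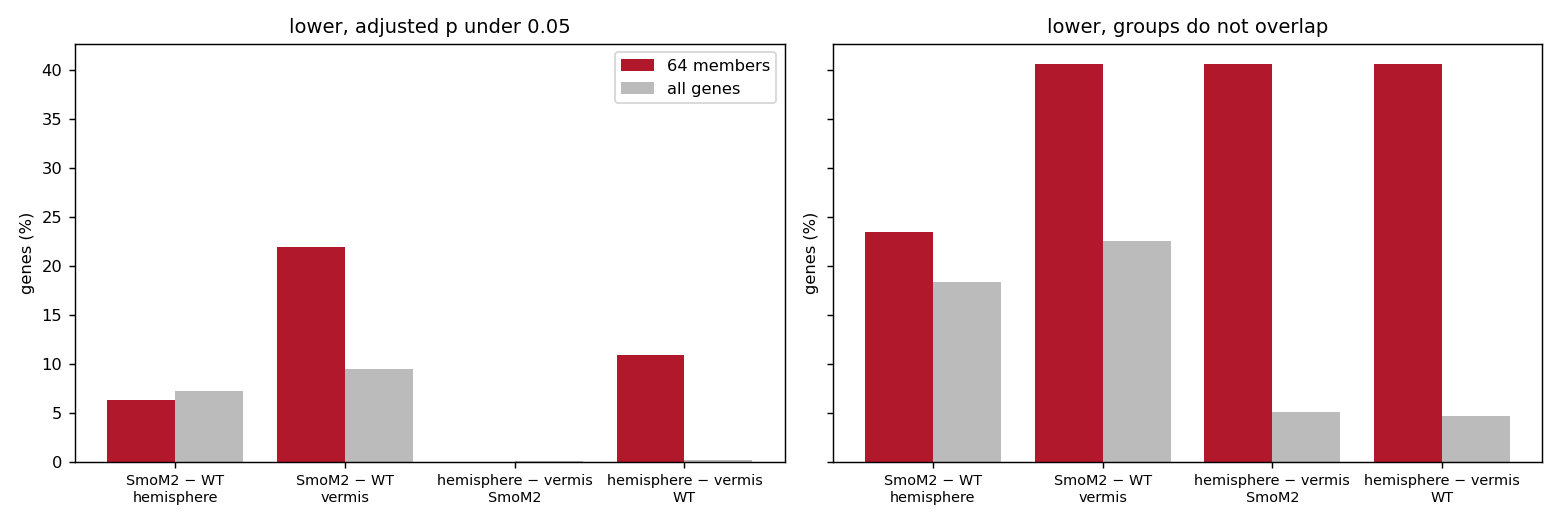
Percent of the 64 genes (red) and of all 18194 genes (grey) that were lower at an adjusted p under 0.05 (left) or whose 3 arrays all lay below the 3 of the other group (right), in 4 comparisons. The non-overlapping share is 40.6% for both region comparisons, against 5.09% and 4.69% of all genes. Among the 46 genes taken by first letters it is 26.1% (SmoM2) and 32.6% (wild type). For SmoM2 against wild type in the hemisphere it is 23.4% of the 64, against 18.3% of all genes. In the vermis, the share lower at an adjusted p under 0.05 is 33.3% of the 18 listed symbols and 17.4% of the 46 genes.

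Radial spoke genes had the most calls for their number between SmoM2 and wild type. Of 8 (Rsph1, Rsph3a, Rsph4a, Rsph6a, Rsph9, Rsph14, Lrrc23 and Nme5), 3 fell in SmoM2 hemisphere and 5 in SmoM2 vermis, and 0 were higher. The shares of all genes were 7.18% and 9.46% lower, and 7.62% and 7.56% higher, in the same order. Lrrc23 and Nme5, which passed in both regions, are listed symbols chosen with earlier results known, so the ranking is a description. Of the Rsph genes, taken by first letters, only Rsph9 passed in the hemisphere, and Rsph1, Rsph4a and Rsph6a in the vermis. Rsph4a, a protein of the spoke head, read 3.57, 3.84 and 3.70 in SmoM2 hemisphere, 4.24, 3.54 and 3.75 in wild type hemisphere, 4.35, 4.24 and 3.80 in SmoM2 vermis and 5.10, 5.12 and 4.82 in wild type vermis. Only the wild type vermis arrays stood above all others. SmoM2 minus wild type was -0.14 ± 0.18 (hemisphere, adjusted p = 0.613) and -0.88 ± 0.18 in the vermis (adjusted p = 0.00389, limma). This was the smallest adjusted p of the 64 genes.

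Lrrc23, a leucine-rich repeat protein of the spoke, fell in both regions. It read 5.36, 5.04 and 5.19 in SmoM2 hemisphere against 5.68, 5.57 and 5.92 in wild type hemisphere, and 5.62, 5.62 and 5.53 in SmoM2 vermis against 5.90, 6.32 and 6.11 in wild type vermis. No SmoM2 array reached a wild type array of its region. The differences were -0.53 ± 0.13 (adjusted p = 0.0139) and -0.52 ± 0.13 (adjusted p = 0.0143), and the first ended without SmoM2 hemisphere replicate 2 (0.0607) or wild type hemisphere replicate 3 (0.0555), the second without wild type vermis replicate 2 (0.0699). Nme5, a nucleoside diphosphate kinase relative found in the spokes, also fell in both: 4.60, 4.48 and 4.69 in SmoM2 hemisphere against 5.42, 5.00 and 5.08 in wild type hemisphere, and 5.23, 5.42 and 4.70 in SmoM2 vermis against 5.77, 5.68 and 5.77 in wild type vermis. Groups did not overlap in either region. Its differences were -0.58 ± 0.16 (adjusted p = 0.0274) and -0.62 ± 0.16 (adjusted p = 0.0174). The first ended without SmoM2 hemisphere replicates 1 (0.0755), 2 (0.0877) or 3 (0.0514) or wild type hemisphere replicate 1 (0.0636), with array quality weights (0.0675) or a further quantile normalization (0.068), and the second without SmoM2 vermis replicate 3 (0.0621) or wild type vermis replicate 3 (0.0535).

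Rsph1, also of the spoke head, read 4.73, 4.61 and 5.20 in SmoM2 hemisphere against 5.64, 5.04 and 5.69 in wild type hemisphere, and 5.75, 5.68 and 5.28 in SmoM2 vermis against 6.24, 6.51 and 6.05 in wild type vermis. The hemisphere groups overlapped and the vermis groups did not. SmoM2 minus wild type was -0.61 ± 0.20 (hemisphere, adjusted p = 0.0539) and -0.70 ± 0.20 in the vermis (adjusted p = 0.0284). The vermis call ended without SmoM2 vermis replicates 2 (0.0564) or 3 (0.103) or wild type vermis replicate 2 (0.115), and with the pool as random block (0.0558). Rsph6a, the sperm relative of Rsph4a, was dimmer than each array's lower quartile and fell by 0.35 in SmoM2 vermis, with 2.83, 2.75 and 2.90 there against 3.10, 3.26 and 3.16 in wild type vermis (adjusted p = 0.0255). That call ended without SmoM2 vermis replicates 1 (0.0712) or 2 (0.103), without wild type vermis replicates 2 (0.0958) or 3 (0.0629), with arrays centred on their medians (0.0502), and with a further quantile normalization, which gave -0.21 (0.129).

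Rsph9 of the spoke head, named after its values were seen, was the brightest spoke gene with a call. It read 6.35, 6.62 and 6.59 in SmoM2 hemisphere against 7.04, 6.77 and 6.91 in wild type hemisphere, and fell by 0.38 (adjusted p = 0.0389). Its call ended without any of 7 single arrays, namely SmoM2 hemisphere replicates 1 and 3, wild type hemisphere replicates 1 and 3 and the 3 SmoM2 vermis arrays, at adjusted p of 0.0515 to 0.157. It also ended with the pool as random block (0.06), array quality weights (0.0683), only the groups compared (0.0915) and trended moderation (0.0536). In the vermis it differed by -0.25 (adjusted p = 0.153). Rsph14 differed by 0.04 and -0.31 and Rsph3a by -0.00 and 0.16 in hemisphere and vermis, and neither passed.

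All 10 dynein heavy chain genes, the motors themselves (Dnah1, Dnah2, Dnah5, Dnah6, Dnah7a, Dnah8, Dnah9, Dnah11, Dnah12 and Dnah17), had a negative difference between SmoM2 and wild type in both regions, as did 58.2% of all genes in the hemisphere and 58.3% in the vermis. Of the 10, 1 passed in the hemisphere and 2 in the vermis, where 7.18% and 9.46% of all genes were lower. Dnah7a, of the inner row, read 4.77, 4.67 and 5.01 in SmoM2 hemisphere against 5.17, 5.31 and 5.22 in wild type hemisphere, and 4.80, 4.87 and 4.84 in SmoM2 vermis against 5.11, 4.92 and 5.00 in wild type vermis. Neither pair of groups overlapped. It fell by 0.42 in hemispheres (adjusted p = 0.0166) and differed by -0.17 in the vermis (adjusted p = 0.273). The call ended without SmoM2 hemisphere replicates 1 (0.0654) or 2 (0.0712) or wild type hemisphere replicate 2 (0.0618), with only the groups compared (0.0665) and with a further quantile normalization (0.0694). Dnah9, of the outer row, read 3.47, 3.46 and 3.64 in SmoM2 hemisphere against 3.72, 3.41 and 4.02 in wild type hemisphere, and 3.71, 3.63 and 3.70 in SmoM2 vermis against 4.24, 4.08 and 4.17 in wild type vermis. It fell by 0.48 in the vermis (adjusted p = 0.024), where the groups did not overlap. Its call ended without SmoM2 vermis replicates 1 (0.0619), 2 (0.0815) or 3 (0.0553) or wild type vermis replicates 1 (0.059) or 3 (0.0647), and with a further quantile normalization, which gave -0.31 (0.158).

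Dnah12, an inner row chain named after its values were seen, read 3.11, 3.53 and 2.84 in SmoM2 vermis against 3.35, 4.05 and 3.77 in wild type vermis, and the groups overlapped. It fell by 0.56 (adjusted p = 0.0436), and the call ended without any single array but 4, at adjusted p of 0.0523 to 0.179. It also ended with the pool as random block (0.0616), with only the groups compared (0.0761) and with a further quantile normalization (0.157). The 7 heavy chains without a call differed by -0.30 to -0.03 in the hemisphere and by -0.40 to -0.06 in the vermis.

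**Figure D4:**
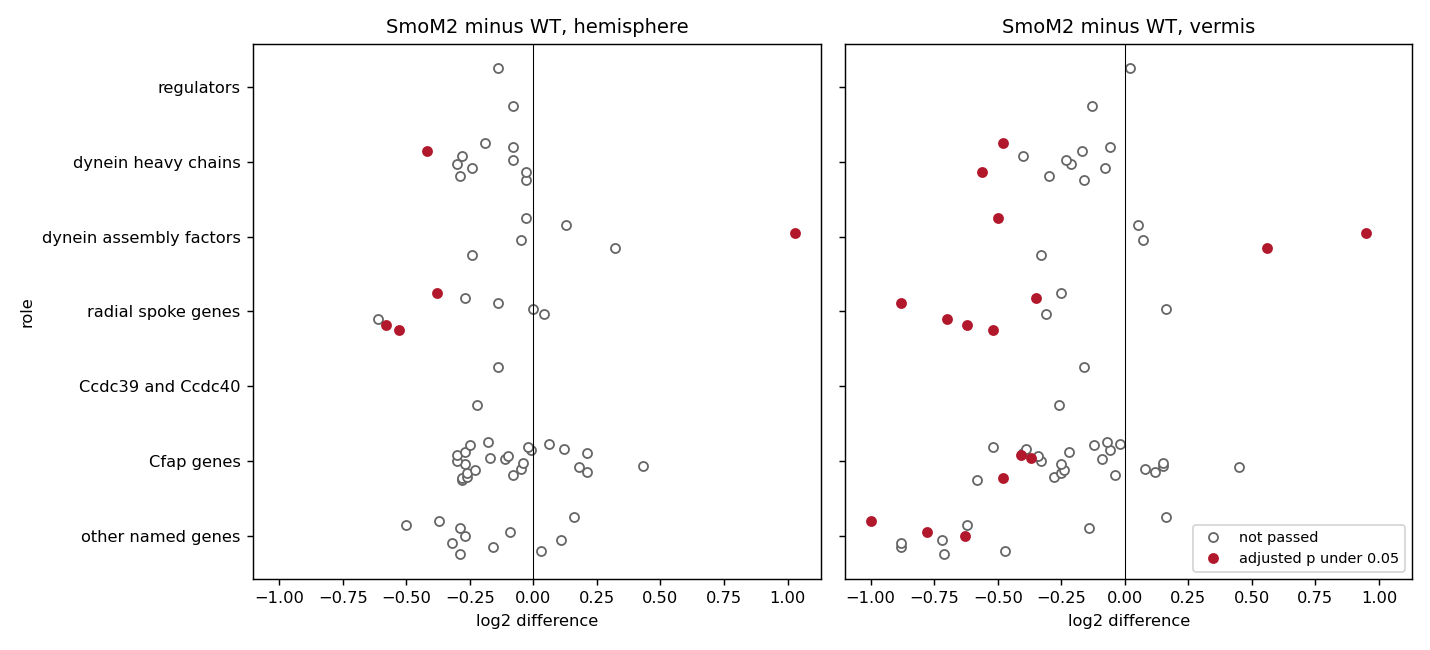
SmoM2 minus wild type (log2) for each of the 64 genes by role, in the hemisphere (left) and the vermis (right), with genes at an adjusted p under 0.05 filled and points spread vertically within a role for legibility. Dnaaf5 lies farthest to the right in both, at 1.03 and 0.95.

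The dynein assembly factors included the only genes that rose. Dnaaf5, which helps to fold and assemble dynein arms, read 6.79, 6.97 and 6.64 in SmoM2 hemisphere against 6.17, 5.27 and 5.89 in wild type hemisphere, and 6.56, 6.98 and 6.39 in SmoM2 vermis against 6.18, 5.44 and 5.46 in wild type vermis. Every SmoM2 array lay above every wild type array. The differences were 1.03 ± 0.24 (adjusted p = 0.00967) and 0.95 ± 0.24 (adjusted p = 0.0146), or 2.04-fold and 1.93-fold. The vermis call ended without SmoM2 vermis replicate 2 (0.0721) or wild type vermis replicates 2 (0.0662) or 3 (0.0619). Its 3 other probe sets, with means of 3.76, 2.54 and 2.34, did not pass in either region. They differed the other way, by -0.20, -0.13 and -0.05 in the hemisphere and by -0.37, -0.08 and -0.06 in the vermis. With the mean of all its probe sets the differences were 0.16 (0.215) and 0.11 (0.384).

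Dnaaf2, another assembly factor, read 7.63, 7.73 and 7.71 in SmoM2 hemisphere against 7.69, 7.13 and 7.29 in wild type hemisphere, and 7.67, 7.78 and 7.72 in SmoM2 vermis against 7.31, 7.33 and 6.86 in wild type vermis. It differed by 0.32 ± 0.15 in the hemisphere (adjusted p = 0.155), where the groups overlapped, and rose by 0.56 ± 0.15 in the vermis (adjusted p = 0.0193). That call ended without SmoM2 vermis replicate 2 (0.0688) or wild type vermis replicate 3 (0.0877). Its second probe set was higher in both regions, by 0.57 each (adjusted p = 0.0146 and 0.0143 over 34958 probe sets). Zmynd10, an assembly factor named after its values were seen, went the other way in the vermis, with 4.49, 4.83 and 4.24 in SmoM2 vermis against 5.06, 5.18 and 4.83 in wild type vermis, meeting at their ends. It fell by 0.50 (adjusted p = 0.0441), and the call ended without 7 of the 12 arrays left out singly, at adjusted p of 0.0538 to 0.156, and with a further quantile normalization (0.178). Dnaaf1, Dnaaf4 and Dnaaf6 differed by -0.24 to 0.13 in the hemisphere and -0.33 to 0.07 in the vermis, with no call.

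Of the 25 Cfap genes, 0 passed by limma in the hemisphere, where 3 were lower and 0 higher at an unadjusted p under 0.05, and 3 fell in the vermis. Among all genes, 17.0% were lower and 14.0% higher in the hemisphere at that unadjusted p. By adjusted p, 7.18% of all genes were lower in the hemisphere and 9.46% in the vermis. Cfap47, a flagellar protein, read 2.01, 2.07 and 2.01 in SmoM2 hemisphere against 2.20, 2.25 and 2.15 in wild type hemisphere, and 2.07, 2.07 and 2.08 in SmoM2 vermis against 2.50, 2.44 and 2.38 in wild type vermis. These values are dimmer than each array's lower quartile, and the groups did not overlap in either region. It differed by -0.17 in hemispheres (adjusted p = 0.186) and fell by 0.37 in the vermis (adjusted p = 0.0105).

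Cfap53, which lies inside the axonemal microtubules, read 4.07, 4.12 and 4.05 in SmoM2 hemisphere against 4.24, 4.45 and 4.46 in wild type hemisphere, and 4.02, 4.06 and 4.07 in SmoM2 vermis against 4.30, 4.47 and 4.61 in wild type vermis. No SmoM2 array reached a wild type array. It differed by -0.30 in hemispheres (adjusted p = 0.0631) and fell by 0.41 in the vermis (adjusted p = 0.0156), a call that ended without SmoM2 vermis replicate 1 (0.0576) or wild type vermis replicate 3 (0.0716). A further quantile normalization also ended it, at -0.24 (0.0971). Cfap157, a basal body protein switched on by Foxj1, read 2.65, 2.48 and 2.82 in SmoM2 vermis against 3.03, 3.22 and 3.14 in wild type vermis. It fell by 0.48 (adjusted p = 0.0286), and the call ended without SmoM2 vermis replicates 1 (0.0775) or 2 (0.122) or wild type vermis replicates 2 (0.0985) or 3 (0.0743), and with a further quantile normalization (0.0707). In the hemisphere it read 2.55, 2.97 and 2.67 in SmoM2 against 2.80, 3.01 and 3.21 in wild type, with overlap.

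The other 22 Cfap genes (Cfap20, Cfap20dc, Cfap36, Cfap43, Cfap45, Cfap52, Cfap54, Cfap57, Cfap61, Cfap65, Cfap69, Cfap70, Cfap97, Cfap97d1, Cfap126, Cfap161, Cfap206, Cfap221, Cfap298, Cfap299, Cfap300 and Cfap410) had no call in any comparison. Cfap299 read 3.62, 3.73 and 3.59 in SmoM2 hemisphere, 3.67, 3.13 and 3.59 in wild type hemisphere, 4.58, 4.35 and 4.25 in SmoM2 vermis and 4.24, 3.78 and 3.80 in wild type vermis, highest in SmoM2 vermis. Its region difference in SmoM2, -0.75 ± 0.16, had the smallest adjusted p of the set there (0.203). Cfap52, which lies inside the axonemal microtubules, differed between hemisphere and vermis by -0.76 in SmoM2 and by -1.0 in wild type (adjusted p = 0.968 and 0.201). The 64 genes had 32 other probe sets, of which 19 were dimmer than each array's lower quartile. In SmoM2 hemisphere 1 was higher (Dnaaf2) and 0 were lower. In SmoM2 vermis 1 was higher and 3 were lower, dim second probe sets of Cfap52 (-0.54, adjusted p = 0.0135), Dnah2 (-0.52, 0.0318) and Dnaaf4 (-0.35, 0.0423). Between hemisphere and vermis 0 of the 32 passed by limma in either genotype. The difference was negative for 16 in SmoM2 and 19 in wild type, against 47.9% and 50.8% of all genes. At an unadjusted p under 0.05, 1 was lower and 1 higher in SmoM2, and 6 lower and 0 higher in wild type.

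Among the 11 other listed genes (Tmem212, Fam216b, Fam183b, Ccdc153, Enkur, Cabcoco1, Dynlrb2, Ak7, Pifo, Mlf1 and Tppp3), Tmem212, Fam216b and Fam183b fell in SmoM2 vermis and 0 passed by limma in the hemisphere, where 0 of the 11 had an unadjusted p under 0.05. Among all genes, 9.46% were lower in the vermis. In the hemisphere, 14.8% of all genes passed and 30.9% had an unadjusted p under 0.05. Tmem212 fell by 1.00 ± 0.29 in the vermis (adjusted p = 0.0297), a call that ended without SmoM2 vermis replicates 1 (0.0666) or 3 (0.107) or wild type vermis replicates 2 (0.101) or 3 (0.0633). Fam216b fell by 0.78 ± 0.17 (adjusted p = 0.0072). Fam183b fell by 0.63 ± 0.20 (adjusted p = 0.0419), and the call ended without any of 6 single arrays at adjusted p of 0.0512 to 0.177, with the pool as random block (0.0755) and with a further quantile normalization (0.124). Ccdc153 differed by -0.88 ± 0.30 in the vermis (adjusted p = 0.056), Enkur by -0.72 ± 0.28 (adjusted p = 0.0856) and Cabcoco1 by -0.47 ± 0.17 (adjusted p = 0.0687). The others, Dynlrb2, Ak7, an adenylate kinase, Pifo, Mlf1 and Tppp3, did not pass in any comparison. Nor did Ccdc39 and Ccdc40, which set the spacing of dyneins and spokes along the axoneme.

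**Figure D5:**
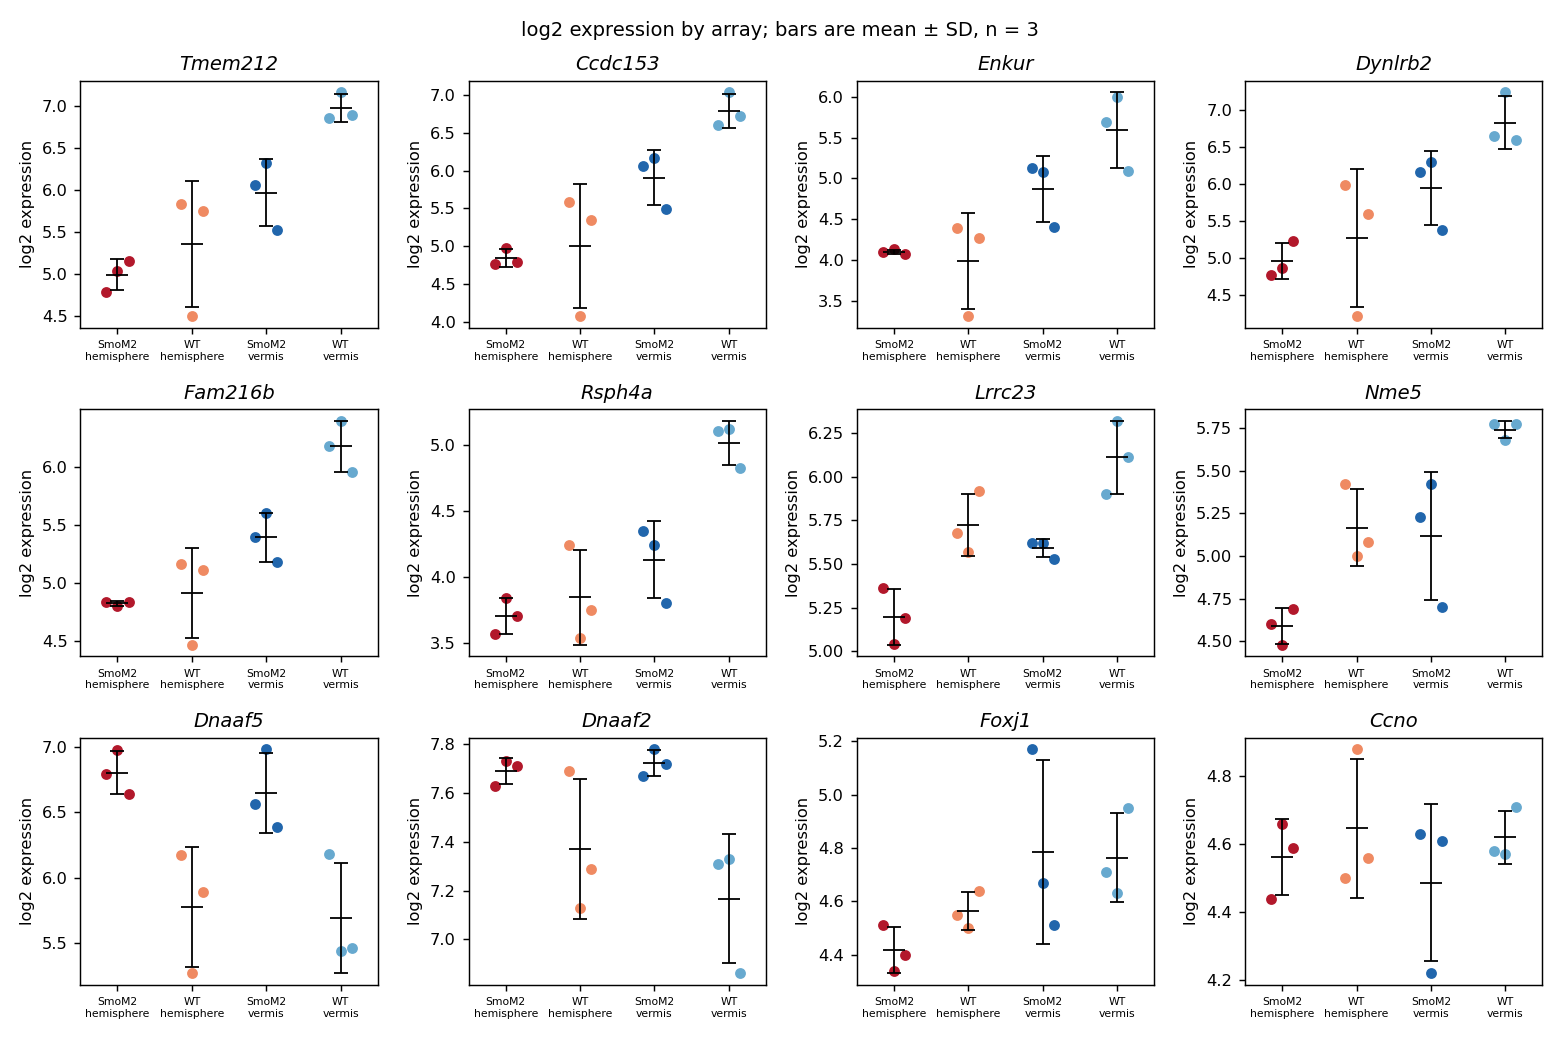
log2 expression of 12 of the genes on each array (points), with the mean and SD of the 3 arrays of a group (black). In the upper row wild type vermis is highest and both hemisphere groups are lowest, Dnaaf5 is higher in both SmoM2 groups, and the groups of Foxj1 and Ccno overlap.

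The 2 regulators measured did not pass in any comparison by limma, where at an unadjusted p under 0.05 Foxj1 alone was lower, in SmoM2 hemisphere against SmoM2 vermis. Foxj1, the transcription factor of motile cilia, read 4.51, 4.34 and 4.40 in SmoM2 hemisphere, 4.55, 4.50 and 4.64 in wild type hemisphere, 5.17, 4.67 and 4.51 in SmoM2 vermis and 4.71, 4.63 and 4.95 in wild type vermis. These values lie around the array medians. SmoM2 minus wild type was -0.14 ± 0.15 (hemisphere, adjusted p = 0.533) and 0.02 ± 0.15 in the vermis (adjusted p = 0.937), and hemisphere minus vermis was -0.37 in SmoM2 (adjusted p = 1.0) and -0.20 in wild type (adjusted p = 0.954). Ccno, a cyclin-like protein needed to multiply centrioles in multiciliated cells, read 4.44, 4.66 and 4.59 in SmoM2 hemisphere, 4.50, 4.88 and 4.56 in wild type hemisphere, 4.63, 4.22 and 4.61 in SmoM2 vermis and 4.58, 4.57 and 4.71 in wild type vermis. Its groups overlapped in all comparisons, and its SmoM2 differences were -0.08 and -0.13.

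Other motile cilium genes outside the set were measured for comparison. Of 43, 0 rose, 4 fell in SmoM2 hemisphere and 6 fell in SmoM2 vermis, where 7.18% and 9.46% of all genes were lower. Zbbx had the smallest adjusted p, with 3.57, 3.97 and 3.88 in SmoM2 hemisphere against 4.52, 4.24 and 4.71 in wild type hemisphere, and 3.90, 3.69 and 4.0 in SmoM2 vermis against 4.96, 4.72 and 4.70 in wild type vermis. It fell by 0.68 ± 0.14 (adjusted p = 0.00548) and 0.93 ± 0.14 (adjusted p = 0.000497). Spef2, of the central pair, fell by 0.60 in the vermis (adjusted p = 0.00725), as did Spag6l, of the central apparatus, by 0.88 (0.0147) and Ropn1l by 0.41 (0.0147). Between hemisphere and vermis 0 of the 43 passed by limma in either genotype. At an unadjusted p under 0.05, 4 were lower and 0 higher in SmoM2 (2.0% and 1.64% of all genes). In wild type 12 were lower and 1 higher (4.0% and 2.31% of all genes). The median over the 43 was -0.08 in SmoM2 and -0.16 in wild type.

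Regulators of multiciliated cells and genes of the primary cilium were also compared between SmoM2 and wild type. Among all genes, 7.62% were higher and 7.18% lower in the hemisphere, and 7.56% higher and 9.46% lower in the vermis. Of 19 regulators measured, SmoM2 hemisphere had 2 higher and 1 lower, and SmoM2 vermis 5 higher and 2 lower. The share higher in the vermis was thus above that of all genes, and 12 of the 19 did not pass there. Rfx1, which binds X-box sequences, rose in SmoM2 hemisphere by 0.76 (adjusted p = 0.00325) and in SmoM2 vermis by 0.65 (0.0087). Gmnn, a block on DNA replication licensing, rose by 0.52 in the vermis (0.00507), as did E2f5, a cell cycle transcription factor, by 0.57 (0.0109), and Tfdp1, a partner of E2F factors, rose by 0.41 (0.0253) and 0.45 (0.0153). These genes also act in dividing cells. Trp73 fell by 0.60 (0.0209) and Deup1 by 0.33 (0.0384) in the vermis, and E2f4 fell by 0.43 (0.0495) in the hemisphere. Of 40 primary cilium and intraflagellar transport genes, SmoM2 hemisphere had 3 higher and 1 lower, and SmoM2 vermis 4 higher. Tulp3, which carries receptors into the cilium, rose by 0.97 (3.93e-05) and 0.76 (0.000331), Kif3a, a subunit of the kinesin that carries cargo up the cilium, by 0.59 (0.0121) in the hemisphere, and Evc by 0.65 (0.0161) and 0.61 (0.0206), while Bbs4 fell by 0.40 (0.0266) in the hemisphere.

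Markers of cells that bear motile cilia, or that a Percoll fraction can hold, were measured beside these genes. Of 8 other ependymal genes, 3 rose and 2 fell in SmoM2 hemisphere and 3 rose and 4 fell in SmoM2 vermis. Sox9, S100b and Aqp4 of this list are also counted among the astroglial genes below, so the lists are not separate. Sox9 rose by 1.05 and 0.93 and Vim by 0.79 and 0.90, whereas Mia fell by 1.27 and 1.30 and Clu by 1.12 in the vermis. None of the 8 passed between regions by limma. At an unadjusted p under 0.05, 1 was lower in SmoM2 and 4 in wild type (2.0% and 4.0% of all genes). Their array means ran from 8.67 to 8.88 in SmoM2 hemisphere, 8.73 to 9.06 in wild type hemisphere, 8.89 to 9.04 in SmoM2 vermis and 9.12 to 9.13 in wild type vermis. Their part in the results was not tested.

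Of 13 choroid plexus genes, 1 was lower in SmoM2 hemisphere than in SmoM2 vermis (Otx2, -0.81, adjusted p = 0.0108) and 2 in wild type (Ecrg4, -1.57, adjusted p = 0.0338, and Otx2, -0.61, adjusted p = 0.039). Among all genes, 0.044% and 0.148% were lower. Otx2 is also a transcription factor of the posterior cerebellum. Ecrg4 read 5.46, 5.63 and 5.95 in SmoM2 hemisphere, 6.68, 5.33 and 5.89 in wild type hemisphere, 7.03, 7.16 and 6.63 in SmoM2 vermis and 7.49, 7.72 and 7.39 in wild type vermis, so the groups of a genotype did not overlap. Ttr, the secreted thyroid hormone carrier that defines choroid plexus epithelium, read 5.97, 5.79 and 6.60 in SmoM2 hemisphere, 11.85, 4.90 and 5.17 in wild type hemisphere, 8.21, 8.76 and 7.15 in SmoM2 vermis and 8.31, 7.75 and 7.68 in wild type vermis. Wild type hemisphere replicate 1 stood far above its group, and its region differences of -1.92 and -0.61 did not pass. Slc4a5 and Kl, 2 further choroid plexus genes, were dimmer than each array's lower quartile. Array means of the 13 ran from 4.85 to 4.98 in SmoM2 hemisphere, 4.52 to 5.39 in wild type hemisphere, 5.10 to 5.47 in SmoM2 vermis and 5.17 to 5.30 in wild type vermis. Their part in the region results was not tested. Without wild type hemisphere replicate 1, 11 of the 64 genes passed in wild type, where 0.319% of all genes did.

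Against wild type, 2 choroid plexus genes rose and 1 fell in SmoM2 in each region. For this and the lists below, 7.62% of all genes rose and 7.18% fell in the hemisphere. In the vermis 7.56% of all genes rose and 9.46% fell. Clic6 rose by 2.39 and 1.66 and Cldn2 by 1.44 and 1.60, whereas Folr1 fell by 0.52 in the hemisphere and Lbp by 0.61 in the vermis. Myelin and oligodendrocyte genes fell for 7 of 11 and rose for 2 of 11 (Olig1 and Olig2) in each region, and microglial genes fell for 7 of 10 in each. Of 10 endothelial and pericyte genes, 0 passed by limma in the hemisphere and 4 fell in the vermis. At an unadjusted p under 0.05, 1 was higher and 0 lower in the hemisphere (14.0% and 17.0% of all genes). Of 13 astroglial genes, SmoM2 hemisphere had 3 higher and 3 lower, and SmoM2 vermis 4 higher and 3 lower. Of 13 granule progenitor genes, these counts were 4 and 3, and 4 and 2. Between hemisphere and vermis, 0 of the 11 oligodendrocyte genes passed by limma in either genotype. At an unadjusted p under 0.05, 1 was lower and 1 higher in SmoM2 (2.0% and 1.64% of all genes). In wild type 7 were lower and 0 higher (4.0% and 2.31% of all genes). The medians were -0.0 in SmoM2 and -0.57 in wild type. Array means of the oligodendrocyte list were 7.60 to 8.12 in SmoM2 hemisphere, 8.31 to 8.44 in wild type hemisphere, 7.73 to 8.15 in SmoM2 vermis and 8.62 to 9.01 in wild type vermis. Those of the endothelial list were 6.49 to 6.71, 6.33 to 7.12, 5.98 to 6.52 and 6.70 to 7.04 in the same order. Microglial array means ran from 5.16 to 5.50 in SmoM2 hemisphere against 5.98 to 6.27 in wild type hemisphere, and from 5.29 to 5.72 in SmoM2 vermis against 6.08 to 6.12 in wild type vermis. The part of these lists in the lower motile cilium values of SmoM2 vermis and of wild type hemisphere was not tested.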

How the data were processed

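The deposited log2 values per probe set (45101 probe sets, 12 arrays) were made by the authors with Partek and RMA, per the submitters' processing notes. No version is given. RMA gives no detection call, so dim probe sets have no known distance from background. Values were used as deposited. Gene names came from GEO's annotation of the platform, where 34958 probe sets had 1 symbol, 932 several and 9211 none. The brightest probe set stood for each of 18194 genes.

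limma 3.58.1 in R 4.3.3 (lmFit, eBayes) fitted a mean for each of 4 groups, and p-values were two-sided and adjusted by Benjamini-Hochberg over all genes. The method was tested on simulated data. The 3 arrays per group limit the precision.

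The genes and gene lists were chosen with earlier results of these data known. Per-array values are given for the 16 of 21 genes with a call that had the smallest adjusted p, for Foxj1 and Ccno, and for Enkur, Fam183b, Dynlrb2, Cfap299, Rsph9, Dnah12, Zmynd10, Ttr and Ecrg4, which were chosen after their values were seen. Up to 4 genes of each further list are named, by smallest adjusted p between SmoM2 and wild type. Otx2, Slc4a5, Kl, Trp73, Deup1 and E2f4 were named outside that rule, after their values were seen. Alternatives were other normalizations, filters, probe set rules, blocks and leaving out each array. Hemisphere and vermis arrays with the same replicate number deviated together. Their correlations were 0.337 to 0.527 in wild type and 0.142 to 0.275 in SmoM2. Same-numbered wild type hemisphere and SmoM2 vermis arrays, which are of different genotypes, ran from -0.11 to 0.277. The labels do not say whether the number pairs the arrays.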

Additional observations from a re-analysis of the deposited data

How the results depend on the processing

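With arrays left out singly, the number of the 64 genes that passed ran from 2 to 9 for SmoM2 against wild type in the hemisphere (5 with all arrays), from 7 to 21 in the vermis (16), from 0 to 1 for hemisphere against vermis in SmoM2 (0), from 0 to 11 in wild type (7), and was 0 throughout for the difference between both SmoM2 effects. In the hemisphere it was 2 without SmoM2 hemisphere replicates 1 or 2 and 9 without wild type hemisphere replicate 1. In the vermis it was 8, 10 and 9 without SmoM2 vermis replicates 1, 2 and 3, and 7 and 9 without wild type vermis replicates 2 and 3. The share of all genes that passed moved as well with arrays left out singly. It ran from 8.98% to 23.5% in the hemisphere (14.8% with all arrays) and from 9.65% to 21.0% in the vermis (17.0%). For hemisphere against vermis it ran from 0.011% to 0.0989% in SmoM2 (0.0605%) and from 0.044% to 0.319% in wild type (0.187%). Keeping only genes brighter than the median of gene means left 9 of the 64, with 2 calls for SmoM2 against wild type in each region and 0 for hemisphere against vermis in wild type, where fewer genes were tested. Of all genes kept by that filter, 24.7% (hemisphere), 24.1% (vermis) and 0.231% passed in these comparisons. Fitting only the groups compared gave 3 in the hemisphere and 0 in the wild type region comparison, and a further quantile normalization gave 3 (hemisphere) and 10 (vermis), and the cause was not tested. The matching shares of all genes were 9.64% and 0.0165% with only the groups compared, and 13.6% and 14.1% with the further normalization. For hemisphere against vermis in SmoM2, array quality weights and the pool as a random block gave 1 each (0.231% and 0.214% of all genes). In wild type the pool as a random block gave 15 (1.09% of all genes). The replicate block within genotype, an alternative chosen after seeing the data, gave 2 (0.269% of all genes). For SmoM2 against wild type the replicate block gave 6 calls (hemisphere) and 19 (vermis), where 17.9% and 20.6% of all genes passed. No named gene with a call changed its direction in any alternative, and the SmoM2 vermis calls of Rsph4a, Fam216b and Cfap47 held in every alternative that tested them. These alternatives did not take other probe sets singly, and those of Dnaaf5 went the other way. Arrays carry no detection call, so signal over background is unknown for the dim genes.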

Other observations

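Beside the 7 motile cilium genes, the 34 genes that differed between wild type hemisphere and vermis by limma included En1 (-3.08, hemisphere minus vermis, adjusted p = 3.35e-07), an engrailed transcription factor, and Nr2f2 (1.87, adjusted p = 8.59e-05), a nuclear receptor. Mal, a proteolipid of myelin and epithelia, differed by -1.23 (adjusted p = 0.0293), Ppil6 by -0.91 (adjusted p = 0.0293) and Ppp1r36 by -1.11 (adjusted p = 0.039). In SmoM2 the same genes differed by -2.61 (En1), 1.60 (Nr2f2), -0.62 (Mal), -0.69 (Ppil6) and -0.60 (Ppp1r36). These 5 genes were chosen after their values were seen.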
